A study of Mus musculus with 4 samples.

Results

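Glycolysis and hypoxia response genes were followed in spleens of Snd1 knockout (KO) and wild-type (WT) mice. The members are 42 listed genes, taken wherever the annotated symbol of an array probe matched, and separated into 23 glycolytic enzymes and glucose-handling genes, 7 regulators of the hypoxia-inducible factor (HIF) pathway and 12 other hypoxia targets. Of the 42 genes, 38 had a probe, with 62 of the 25697 probes on the array. Gpi1, Eno1, Ldhb and Ankrd37 had no probe annotated with their symbol and are not analysed here. A probe was tested where its signal stood above the negative controls (detection p under 0.05) on both arrays of at least 1 group, which held for 12493 probes in all and for 43 member probes of 32 genes. Pgk1, Egln3, Hif1an, Adm, Bnip3 and Mxi1 fell below this limit.

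RNA came from the spleens of 2 homozygous Snd1 KO and 2 WT female mice of the C57BL/6N strain, aged 8 to 12 weeks by the labels, while the figure legend for these arrays gives 8 weeks. The KO allele lacks the first exon of Snd1. It was made in 129/Sv embryonic stem cells with loxP sites and deleted in the germline by a broadly expressed CAG-Cre transgene, so Snd1 is lost from every cell type, and the line was then backcrossed to C57BL/6N. Both genotypes were littermates of heterozygous crosses, kept without any treatment named in the sources, and each RNA sample, from part of 1 spleen, was hybridised to 1 Illumina MouseRef-8 bead array. Values below are background-corrected, quantile-normalized log2 intensities, which compare 1 probe between arrays and not genes with each other.

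Glycolysis turns glucose into pyruvate in the cytosol and yields ATP without oxygen. When oxygen falls, the HIF alpha subunits escape the prolyl hydroxylases that mark them for destruction through Vhl, pair with Arnt and bind a short DNA core, the hypoxia response element. Glucose transporters, glycolytic enzymes, Vegfa and the hydroxylases themselves are classical targets. The comparison asked whether spleens without Snd1, which encodes an RNA-binding protein described as a transcriptional coactivator, differ in the RNA of these genes under normal housing.

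The promoters of 5 members are shown to place the HIF core next to the genes whose values the results turn on, with Ldha as a classical target. They were chosen after the values were seen. Each runs 5′ to 3′ on the gene's strand, from 250 bases before to 50 bases after a RefSeq transcript start (GRCm38.p6), and where a gene has several starts, that with the most matches is given. Capitals mark the core, ACGTG or GCGTG on either strand, with overlapping matches joined. The palindrome CACGTG holds the core on both strands and is also the E-box of other factors. Ddit4 lies at chr10:59951721-59952020 (minus strand), Aldoc at chr11:78322823-78323122 (plus), Pfkfb3 at chr2:11502041-11502340 (minus), Pfkp at chr13:6648722-6649021 (minus) and Ldha at chr7:46845554-46845853 (plus).
Ddit4: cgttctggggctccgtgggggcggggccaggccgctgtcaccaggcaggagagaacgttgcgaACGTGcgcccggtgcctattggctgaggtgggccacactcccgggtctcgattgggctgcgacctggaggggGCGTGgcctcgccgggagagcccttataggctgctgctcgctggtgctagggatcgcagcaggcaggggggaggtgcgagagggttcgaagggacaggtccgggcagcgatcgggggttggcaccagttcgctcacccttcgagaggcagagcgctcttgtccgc
Aldoc: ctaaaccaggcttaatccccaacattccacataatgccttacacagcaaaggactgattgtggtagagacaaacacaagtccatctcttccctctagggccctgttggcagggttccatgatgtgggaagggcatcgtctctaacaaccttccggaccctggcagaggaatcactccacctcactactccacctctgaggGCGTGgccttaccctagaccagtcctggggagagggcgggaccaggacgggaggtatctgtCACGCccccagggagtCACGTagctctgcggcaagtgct
Pfkfb3: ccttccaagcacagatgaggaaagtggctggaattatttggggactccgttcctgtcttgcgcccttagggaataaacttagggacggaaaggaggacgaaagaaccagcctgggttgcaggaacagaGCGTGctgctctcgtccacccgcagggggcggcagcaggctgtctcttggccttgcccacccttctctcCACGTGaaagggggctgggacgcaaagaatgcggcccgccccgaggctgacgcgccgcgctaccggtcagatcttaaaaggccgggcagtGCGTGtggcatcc
Pfkp: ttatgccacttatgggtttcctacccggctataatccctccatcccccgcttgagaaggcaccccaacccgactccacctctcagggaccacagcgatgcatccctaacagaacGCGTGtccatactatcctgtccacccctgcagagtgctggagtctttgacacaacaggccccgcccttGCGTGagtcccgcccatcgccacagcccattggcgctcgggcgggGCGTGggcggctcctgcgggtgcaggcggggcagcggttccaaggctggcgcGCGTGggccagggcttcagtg
Ldha: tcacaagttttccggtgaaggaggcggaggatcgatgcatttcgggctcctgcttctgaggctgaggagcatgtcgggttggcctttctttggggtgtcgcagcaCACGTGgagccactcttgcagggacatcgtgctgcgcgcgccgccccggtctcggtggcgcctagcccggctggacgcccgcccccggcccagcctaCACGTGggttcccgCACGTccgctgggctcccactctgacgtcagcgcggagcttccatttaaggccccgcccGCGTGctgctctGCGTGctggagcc

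Matches numbered 2 in the Ddit4 window, 3 in that of Aldoc, 3 in that of Pfkfb3, 4 in that of Pfkp and 5 in that of Ldha. Of 56 RefSeq promoters of 38 matched members, 43 (76.8%) held the core, against 14380 of all 32851 promoters (43.8%). These 38 are not the genes with a probe. They include Gpi1, Eno1, Ldhb and Ankrd37, while Bnip3l, Epas1, Ndrg1 and Slc2a3 had no promoter entry. Among tested members with a promoter, the 26 with the core had a median KO minus WT difference of -0.0324 (log2). Only 2 lacked it, Tpi1 (0.038) and Vhl (0.20), too few for a comparison. Vhl was tested only through KO, so the filter favoured a higher KO value, and the probes of Tpi1 disagreed in direction. A match is a description of the letters and not a bound site.

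The targeted gene was read first. The Snd1 probe gave 4.45 and 4.58 in KO spleens, not above background on either array, against 6.71 and 7.09 in WT spleens. The difference was -2.39 ± 0.19 (log2, SE, n = 2 per group), which put Snd1 in KO spleens lower by at least 3.87-fold (adjusted p = 0.0869, limma with Benjamini-Hochberg adjustment across all tested probes). No source used here states whether this probe lies within the deleted exon. Across the arrays, 12396 to 12908 probes were detected, and arrays correlated at 0.984 within KO, 0.972 within WT and 0.974 to 0.982 between the genotypes (across probes, which are not independent replicates). Only 2 probes in all, 0.0160% of those tested, passed an adjusted p of 0.05, those of Serpina1b and Serpina1d, protease inhibitors made chiefly in liver.

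None of the 32 tested members passed the adjusted threshold in either direction (limma). Mean values were higher in KO for 15 genes and lower for 17, and their median difference was -0.0076 (log2), against -0.0054 for all tested probes. At an unadjusted p under 0.05 stood 3 members (9.38%), all lower in KO, namely the mTOR inhibitor Ddit4, the aldolase Aldoc and the glycolytic regulator Pfkfb3. Aldoc and Pfkfb3 were tested only through their WT arrays, so the filter favoured lower KO values, and only Ddit4 of the 3 was detected on every array. That all 3 were lower did not hold under other settings. Pfkp, a phosphofructokinase with a higher mean in KO, stood under this limit in 7 of 9 alternatives on all arrays, Epas1, also with a higher mean, in 2, Aldoc in 5 and Pfkfb3 in 5, and with uncorrected signals the set was Ddit4 and Pfkp. The background for this limit was 6.09% of tested probes, 3.31% higher and 2.78% lower. KO and WT values did not overlap for 15 of the 32 genes (46.9%), 6 higher and 9 lower in KO, where 37.9% of all tested probes did not overlap. The lower genes include Aldoc and Pfkfb3, and the higher ones include Vhl, which was tested only through KO. The 95% interval of the difference lay within 2-fold either way for 30 genes, all but Aldoc and Ddit4, as it did for 88.0% of all tested probes. For 24 genes the difference itself was under 0.25. The p-values rest on 2 animals per genotype. They weigh a difference only against the spread between these samples, which limma moderates towards that of all tested probes. In whole-spleen RNA, fewer cells of a type and less RNA per cell cannot be told apart.

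**Figure D1:**
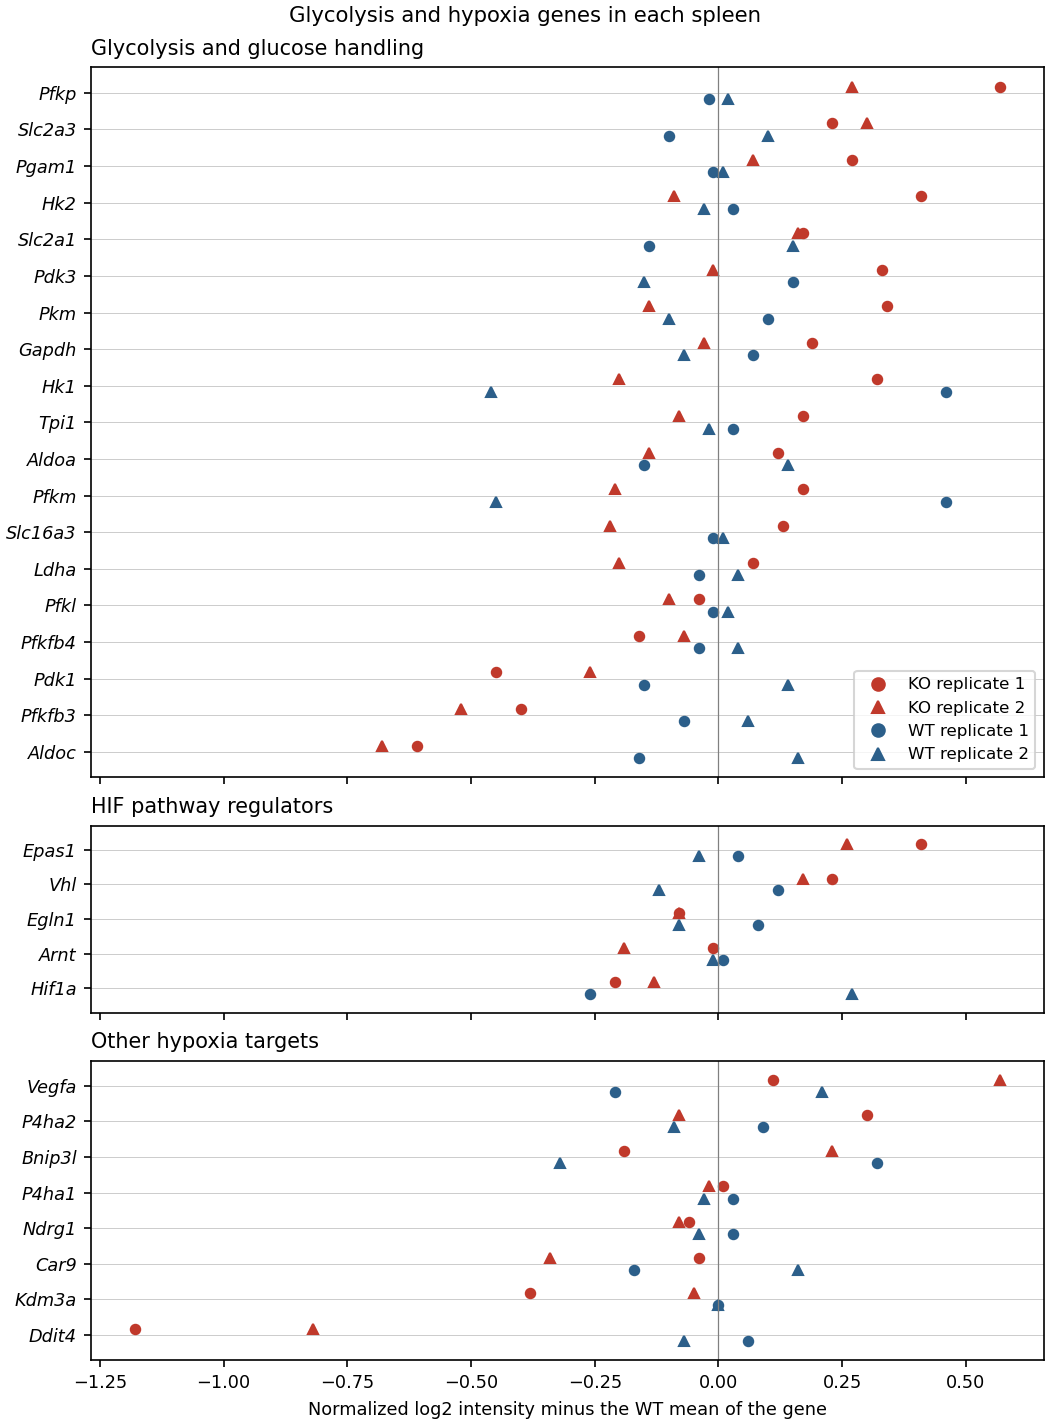
Normalized log2 intensity of each tested member on each array, minus the WT mean of that gene (x axis), with KO arrays in red above WT arrays in blue and the replicates as circles and triangles. Ddit4 stands farthest left in KO, at 8.91 and 9.27 against 10.15 and 10.02 in WT, while most other genes lie close to the WT mean.

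Glucose enters cells through the Slc2a transporters. Slc2a1, the basal transporter, measured 10.14 and 10.13 in KO spleens, against 9.83 and 10.12 in WT spleens, a difference of 0.16 (95% interval -0.26 to 0.59). Slc2a3, a high-affinity transporter of neurons and blood cells, measured 10.04 and 10.11 in KO and 9.71 and 9.91 in WT, a difference of 0.26 ± 0.15 (SE, adjusted p = 0.771, limma). Both KO arrays stood above both WT arrays for each transporter, though for Slc2a1 only just, at 10.13 against 10.12. With single arrays left out, the Slc2a1 difference ran from 0.016 to 0.32. Neither transporter passed the test. Slc16a3, which exports lactate, measured 5.77 and 5.42 in KO and 5.63 and 5.65 in WT, so its groups overlapped.

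Hexokinases trap glucose as its phosphate. Hk1, the hexokinase on which red cells rely, measured 6.51 and 5.99 in KO and 6.65 and 5.73 in WT, a difference of 0.063 (-0.86 to 0.98). The WT spleens spanned the KO values entirely. Hk2, the inducible form, measured 9.21 and 8.71 in KO and 8.83 and 8.77 in WT, a difference of 0.16 (-0.37 to 0.70).

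Phosphofructokinase sets the pace of the pathway, and its 3 isoforms are named for liver, muscle and platelets. Pfkl measured 9.60 and 9.54 in KO and 9.63 and 9.66 in WT, a difference of -0.073 (-0.43 to 0.28). Pfkm measured 9.01 and 8.63 in KO and 9.30 and 8.39 in WT, a difference of -0.023 (-0.89 to 0.84). Pfkp measured 8.84 and 8.54 in KO and 8.25 and 8.29 in WT, a difference of 0.42 ± 0.17 (SE, 1.34-fold higher, adjusted p = 0.771, limma). Pfkp was thus higher on both KO arrays than on either WT array, and its second tested probe ran the same way at 0.21 (adjusted p = 0.814). It did not pass the test.

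The bifunctional Pfkfb enzymes make or break the activator of phosphofructokinase. Pfkfb3 measured 4.98 and 4.86 in KO, against 5.31 and 5.44 in WT, a difference of -0.46 ± 0.15 (SE, 1.37-fold lower, adjusted p = 0.771, limma). Its signal was near background, above it on both WT arrays but on only 1 KO array. It was tested only through its WT arrays, so the filter favoured a lower KO value. Pfkfb4 measured 9.04 and 9.13 in KO and 9.16 and 9.24 in WT, a difference of -0.11 (-0.48 to 0.25).

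Aldolases split the sugar bisphosphate. Aldoa, the main form in muscle and blood cells, measured 10.12 and 9.86 in KO and 9.85 and 10.14 in WT, a difference of -0.01 (-0.48 to 0.46). Aldoc, the brain form, measured 4.97 and 4.90 in KO, against 5.42 and 5.74 in WT, a difference of -0.65 ± 0.17 (SE, 1.56-fold lower, adjusted p = 0.771, limma). Aldoc too was dim, detected on both WT arrays and on 1 KO array, and entered the test only through WT. Without background correction neither dim gene kept an unadjusted p under 0.05.

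The later steps of the pathway gave no call. Tpi1, triose phosphate isomerase, measured 10.96 and 10.71 in KO and 10.82 and 10.77 in WT. Its 3 tested probes disagreed in direction, at 0.038, 0.10 and -0.24. Gapdh, which yields the pathway's NADH, measured 12.41 and 12.19 in KO and 12.29 and 12.15 in WT, a difference of 0.082 (-0.33 to 0.49), and a second probe gave 0.078. The Gapdh groups overlapped on both probes.

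Pgam1, phosphoglycerate mutase, measured 7.65 and 7.45 in KO and 7.37 and 7.39 in WT, a difference of 0.17 (-0.22 to 0.55). Pkm, pyruvate kinase, measured 10.92 and 10.44 in KO and 10.68 and 10.48 in WT, a difference of 0.10 (-0.44 to 0.65). Ldha, which reduces pyruvate to lactate, measured 11.81 and 11.54 in KO and 11.70 and 11.78 in WT, a difference of -0.066 (-0.49 to 0.35). Only Pgam1 of these had no overlap between the groups.

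Pyruvate dehydrogenase kinases close the entry of pyruvate into mitochondria. Pdk1, the HIF-responsive form, measured 7.65 and 7.84 in KO and 7.95 and 8.24 in WT, a difference of -0.35 ± 0.18 (SE, adjusted p = 0.771, limma). Pdk3 measured 7.95 and 7.61 in KO and 7.77 and 7.47 in WT, a difference of 0.16 (-0.34 to 0.66). The KO arrays lay below the WT arrays for Pdk1 and overlapped them for Pdk3. Over the 19 tested glycolysis genes, 10 means were higher and 9 lower in KO, with a median difference of 0.038.

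**Figure D2:**
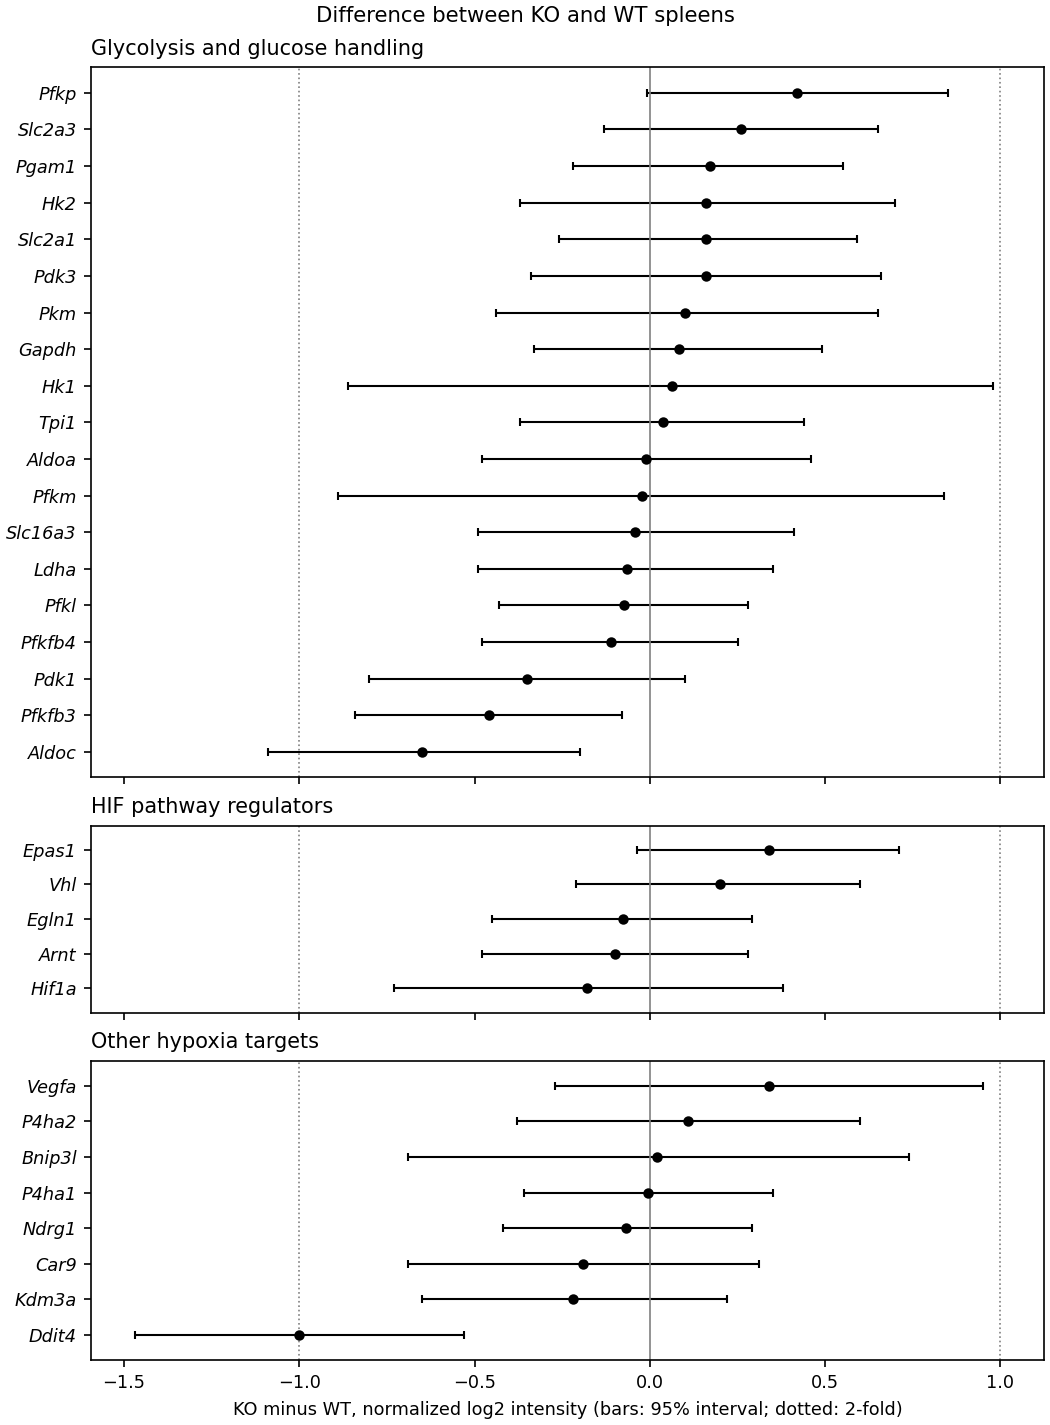
KO minus WT difference of each tested member (x axis, log2) with its 95% interval, by group and ordered by size. Dotted lines mark 2-fold, and the intervals of Aldoc, Pfkfb3 and Ddit4 are those that exclude 0.

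Regulators of the HIF pathway followed. Hif1a, the oxygen-sensitive subunit present in most cells, measured 6.75 and 6.83 in KO and 6.70 and 7.23 in WT, a difference of -0.18 (-0.73 to 0.38). Epas1, the related subunit best known from endothelium, measured 6.46 and 6.31 in KO, against 6.09 and 6.01 in WT, a difference of 0.34 ± 0.15 (SE, 1.26-fold higher, adjusted p = 0.771, limma). Arnt, the shared partner, measured 6.26 and 6.08 in KO and 6.28 and 6.26 in WT, a difference of -0.10 (-0.48 to 0.28). Hif1a overlapped between the genotypes, while Epas1 was higher on both KO arrays than on either WT array without passing the test.

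Vhl, the recognition subunit of the ligase that removes HIF, measured 5.09 and 5.03 in KO and 4.98 and 4.74 in WT. It was not above background on either WT array and entered the test only through KO, so the filter favoured a higher KO value. By group means alone it was at least 1.04-fold higher in KO. The interval of the fitted difference, 0.20 (-0.21 to 0.60, adjusted p = 0.814, limma), included no difference. Egln1, the main prolyl hydroxylase, measured 5.43 and 5.43 in KO and 5.59 and 5.43 in WT, a difference of -0.078, but its second tested probe gave 0.23. Egln3, a hydroxylase that HIF itself induces, was detected on 1 KO array only and not tested, with 4.94 and 4.91 in KO and 4.52 and 4.53 in WT. The median difference over the 5 tested regulators was -0.078.

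Among the other hypoxia targets, Ddit4 stood apart. Ddit4 (REDD1) is induced by hypoxia and other stress and restrains mTOR complex signalling. Its deposited signals were 563.6 and 735.0 in KO spleens, against 1198.4 and 1091.4 in WT spleens. After normalization it measured 8.91 and 9.27 in KO and 10.15 and 10.02 in WT. Both KO values lay below both WT values, by more than either pair of replicates differed. The difference was -1.00 ± 0.18 (log2, SE, n = 2 per group, 95% interval -1.47 to -0.53), or 1.99-fold lower, with an adjusted p of 0.771 (limma). It ranked 33 by p among the 12493 probes, and 38 probes had a larger drop. The difference ran from -1.00 to -0.90 over the alternatives that used all 4 arrays and from -1.18 to -0.81 when single arrays were left out, and in each setting with a test its unadjusted p was under 0.05 and its adjusted p between 0.442 and 1.0.

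**Figure D3:**
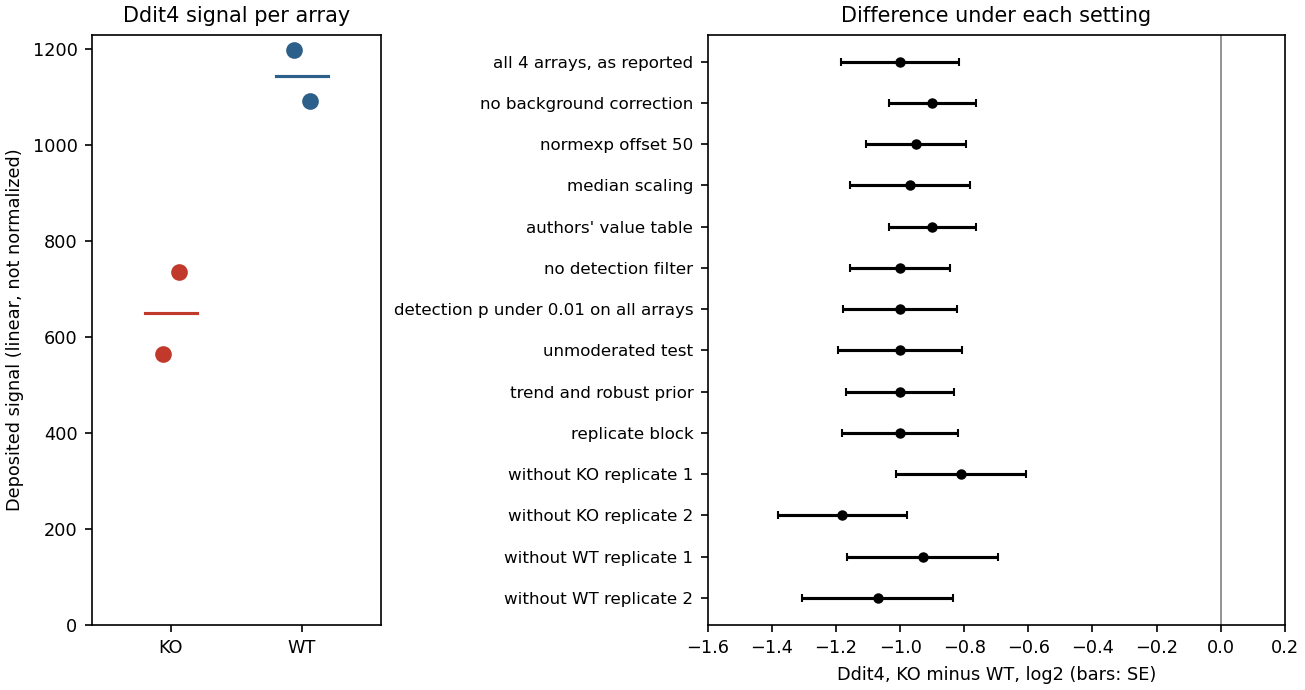
Left, deposited linear Ddit4 signal on each KO and WT array, with bars at the means (y axis from 0). Right, the KO minus WT log2 difference with its SE as reported and under each alternative setting, lying between -1.18 and -0.81 throughout.

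The remaining targets did not follow Ddit4. Vegfa, the angiogenic growth factor, measured 8.80 and 9.26 in KO and 8.48 and 8.90 in WT, a difference of 0.34 (-0.27 to 0.95, adjusted p = 0.794, limma), and its second probe gave 0.18. Bnip3l, which drives clearance of mitochondria in maturing red cells, measured 11.22 and 11.64 in KO and 11.73 and 11.09 in WT, a difference of 0.021 (-0.69 to 0.74). Kdm3a, a histone demethylase induced by HIF, measured 8.92 and 9.25 in KO and 9.30 and 9.30 in WT, a difference of -0.22 (-0.65 to 0.22). Vegfa and Bnip3l overlapped between the genotypes, while Kdm3a was lower on both KO arrays. The other tested Kdm3a probes gave -0.10 and -0.14, and on each of them the groups overlapped.

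Car9, a pH-regulating carbonic anhydrase and a widely used hypoxia marker, measured 5.39 and 5.09 in KO and 5.26 and 5.59 in WT, a difference of -0.19 (-0.69 to 0.31). The collagen prolyl hydroxylase subunits gave, for P4ha1, 6.64 and 6.61 in KO and 6.66 and 6.60 in WT, a difference of -0.0048. P4ha2 measured 5.98 and 5.60 in KO and 5.77 and 5.59 in WT, a difference of 0.11. Ndrg1, a stress-response gene, measured 8.18 and 8.16 in KO and 8.27 and 8.20 in WT, a difference of -0.067. All 4 lay within 0.25 of WT, and Ndrg1 alone of them did not overlap. On the second tested Ndrg1 probe, at -0.0082, the groups overlapped. The median over the 8 tested targets was -0.036, and 3 of the 8 had higher means in KO.

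Single spleens varied in these genes as well. In 16 of the 19 tested glycolysis genes (84.2%), KO replicate 1 was higher than KO replicate 2, with a median gap of 0.25, where 47.5% of all tested probes ran that way with a median gap of -0.015. WT replicate 1 was higher than WT replicate 2 in 7 of the 19 genes (36.8%, median gap -0.032), beside 41.3% of all tested probes. Markers of dividing cells averaged 9.38 and 8.65 in the KO spleens, against 9.68 and 7.77 in WT, and B cell markers averaged 8.74 and 9.29 in KO, against 9.0 and 9.32 in WT. Exocrine pancreas markers, 2 of 8 tested, averaged 8.96 and 6.34 in KO and 6.80 and 6.64 in WT, and adipocyte markers, 3 of 8 tested, averaged 6.02 and 7.62 in KO and 5.88 and 5.73 in WT. Of these 3, Adipoq gave 5.18 and 9.69 in KO and 4.75 and 4.69 in WT, while Lep gave 5.05 and 5.13 in KO and 4.95 and 4.68 in WT and Pparg 7.81 and 8.05 in KO and 7.93 and 7.82 in WT. Adipoq and Lep were tested only through KO. The part of these cells in the gap was not tested.

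Between the WT spleens, 4 members differed by more than 0.5, namely Hk1 (0.92), Pfkm (0.90) and Bnip3l (0.65), all higher in WT replicate 1, and Hif1a (-0.52), lower there. Erythroid markers, of which 10 of the 18 listed were tested, averaged 9.69 and 9.70 in the KO spleens and 10.67 and 8.17 in the WT spleens. The gap between the WT spleens was 4.26 for the blood group protein Kel and 3.40 for the anion exchanger Slc4a1, but 0.0051 for the haemoglobin gene Hba-a1. Hk1, Pfkm and Bnip3l thus moved with most erythroid markers in the WT pair, and the part of red cell precursors in their values was not tested. For Ddit4 the WT arrays differed by 0.13.

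**Figure D4:**
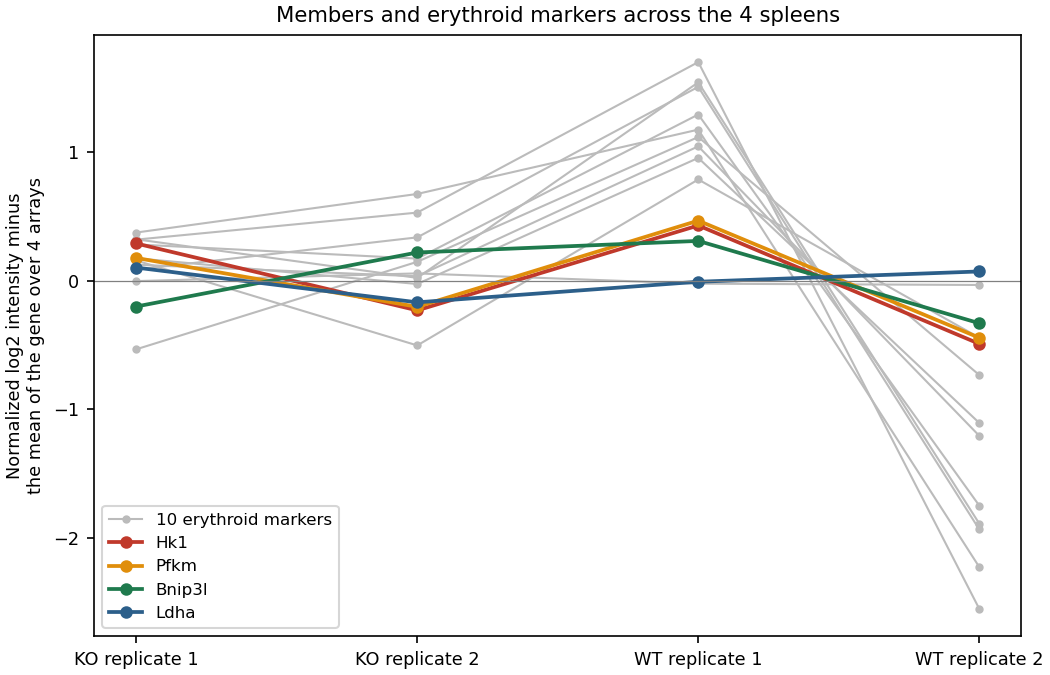
Normalized log2 intensity of Hk1, Pfkm, Bnip3l and Ldha and of 10 erythroid markers (grey) on each array, minus the mean of each gene over the 4 arrays (y axis). Hk1, Pfkm and Bnip3l stand higher in WT replicate 1 than in WT replicate 2, by 0.92, 0.90 and 0.65, while Ldha differs by -0.081.

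Markers of other tissues also differed between the arrays. Liver markers, 7 of 8 tested and 6 of these only through KO, so that the filter favoured higher KO values, averaged 7.57 and 6.80 in KO, against 5.03 and 4.95 in WT, and the defining gene Alb did not pass the detection limit. Mesothelial markers, 4 of 7 tested and Upk1b of these only through KO, averaged 7.55 and 7.84 in KO, against 6.20 and 6.08 in WT. Msln, Krt19 and Lrrn4 were not detected on any array. Neutrophil granule genes, 10 of 13 listed, averaged 8.24 and 6.83 in KO and 9.04 and 8.79 in WT. The groups did not overlap for 9 of the 10, while Mmp9 overlapped, at 8.23 and 7.71 in KO and 8.06 and 7.93 in WT. The part of these tissues and cells in the member values was not tested.

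Of the members, 6 tested genes share chromosome 6 with Snd1, where 129/Sv sequence can remain around the targeted locus after backcrossing. None of them passed the test. Their differences ran from -0.22 for Kdm3a to 0.26 for Slc2a3, with a median of 0.12. The groups overlapped for Gapdh, Hk2 and Tpi1, whose differences turned negative without KO replicate 1, and Vhl was tested only through KO. The other 26 members had a median of -0.032. Strain sequence near the locus and the deletion itself cannot be told apart for genes close to Snd1. Sharing the chromosome does not make a gene close, and the distance of these 6 genes from Snd1 was not worked out.

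The wider pathway, from lists of genes outside the members, gave the same count of calls. Of 54 further glycolysis and glucose genes, 23 were tested, with 6 higher and 17 lower means, a median of -0.10 and 0 past the adjusted threshold. Of 60 further hypoxia genes, 40 were tested, with 23 higher and 17 lower means, a median of 0.035 and 0 past the threshold. At an unadjusted p under 0.05 stood 1 of the 23 glycolysis genes and 3 of the 40 hypoxia genes, with higher means in KO, beside 6.09% of all tested probes (3.31% higher). These counts are small, and the shares were not tested against the background.

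The glycolysis gene was G6pc, glucose 6-phosphatase of liver and kidney, tested only through KO, with 5.67 and 5.26 in KO and 4.78 and 4.85 in WT, not above background in WT and at least 1.37-fold higher (adjusted p = 0.771, limma). Lox, which crosslinks collagen and is a HIF target, measured 6.49 and 6.64 in KO and 5.85 and 5.89 in WT, a difference of 0.69 (adjusted p = 0.771, limma). Cited2, which competes with HIF for its coactivators, measured 6.65 and 6.78 in KO and 6.15 and 6.36 in WT, a difference of 0.46 (adjusted p = 0.771, limma). Rora, a nuclear receptor, differed by 0.35. Next by p came the lipid droplet protein Plin2 at -0.43 and the muscle enolase Eno3 at -0.37, both with an unadjusted p above 0.05.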

How the data were processed

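Per the labels, total RNA of 4 female spleens, 2 KO and 2 WT, was measured on Illumina MouseRef-8 v2.0 arrays. The deposited signals are linear probe intensity values exported by the authors without normalization, and the deposited detection columns are a fraction that is high for bright probes (Spearman 0.975 to 0.991 with the signal), and were taken as 1 minus a detection p. The authors' value table holds log2 signals, quantile normalized (recomputed here to within 5e-09 for all probes but 1), with a median of 6.82 on each array. No source used here gives the slide, the scan batch or the settings of the authors' 2-group test, and batches were therefore not tested.

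Signals were corrected with normexp (offset 16, limma 3.58.1, R 4.3.3), then quantile normalized and log2 transformed. Probes detected at a p under 0.05 on both arrays of a group were compared with limma (lmFit and eBayes, 5.04 total degrees of freedom, Benjamini-Hochberg over 12493 probes). Where a gene had several tested probes, the one with the highest mean stood for it. Of the probes, 23978 had 1 symbol, 0 several and 1719 none in the platform annotation, and 0 symbols needed updating through their gene ID. A bound ("at least") compares the detected group with, on each array of the other group, the probe's own signal or the dimmest detected signal, whichever was higher. It is taken from group means and leaves out the spread between replicates. Named genes were, per group, up to 8 genes with the smallest p, those with an unadjusted p under 0.05, the isoform sets, genes whose probes disagree, and the 6 smallest p of the wider lists. Gapdh, Pkm and Slc16a3 were added to complete the pathway. The members, gene lists, tests and alternatives were chosen with earlier results of these data known. Precision is limited by the number of arrays.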

Additional observations from a re-analysis of the deposited data

How the results depend on the processing

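No member and no gene of the wider lists passed the adjusted threshold under any of the 9 alternatives tested on all arrays or with any of the 4 arrays left out. The mean of a gene's probes was computed for the members' differences and medians only, with no test. Over all probes, calls numbered 2 as reported, 0 without background correction, with the authors' value table, without a detection filter, with an unmoderated test and with the replicate number as a block, 4 with an offset of 50, 8 with a trend and robust prior, and 0 to 14 with 1 array left out (14 without WT replicate 1, 0 without any of the others). Members at an unadjusted p under 0.05 numbered 3 as reported, 5 with median scaling, 6 without a filter (Egln3 at 0.40 among them, near background) and 1 to 3 with 1 array left out. Leaving out KO replicate 1 or WT replicate 2 left only Ddit4 there. Median scaling moved the median of all tested probes to 0.035.

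For the regulators the median came to -0.028 both with uncorrected signals and in the authors' table, 0.018 without a filter, 0.078 with the mean of a gene's probes and -0.078 to 0.078 with 1 array left out. That of the other targets was 0.0049 with median scaling, -0.0048 with the detection limit at 0.01 on every array and -0.067 to -0.0053 with 1 array left out, and that of the glycolysis genes -0.10 (without KO replicate 1) to 0.16. Of 442 recomputed single values, 417 kept direction and side, and 25 in 15 genes turned direction, none of them called. With median scaling Aldoa was 0.044, P4ha1 0.047, Pfkm 0.021 and Slc16a3 0.00031, and with the mean of probes Egln1 was 0.078 and Tpi1 -0.034. With 1 array left out, Aldoa ran from -0.16 to 0.14, Bnip3l ran from -0.3 to 0.34, Gapdh ran from -0.03 to 0.19, Hif1a ran from -0.44 to 0.086, Hk1 ran from -0.4 to 0.52, Hk2 ran from -0.088 to 0.41, Ldha ran from -0.21 to 0.078, P4ha1 ran from -0.032 to 0.021, P4ha2 ran from -0.082 to 0.3, Pdk3 ran from -0.011 to 0.33, Pfkm ran from -0.47 to 0.43, Pkm ran from -0.14 to 0.34, Slc16a3 ran from -0.22 to 0.13 and Tpi1 ran from -0.086 to 0.16. The causes were not tested. Same-numbered arrays deviated from their group means together only weakly (correlation 0.188 across tested probes, which are not independent replicates). The numbers were therefore not taken as pairs, and the block changed no member's call.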

Other observations

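Ddit4 is also known as a gene that glucocorticoid hormones and p53 induce, and other genes known for 1 of these responses were read after the values of Ddit4 were seen, so no test is given. Tsc22d3 measured 11.05 and 11.45 in KO and 11.65 and 11.84 in WT, and its probes differed by -0.50 and -0.55 (KO minus WT, log2). Per1 gave -0.24 and -0.58 on its probes, and the p53 target Sesn1 gave -0.56 and -0.69. Other genes read did not fall in this way. Fkbp5 (0.34) and Klf9 (0.20) were higher on both KO arrays than on either WT array. Dusp1 (0.19), Sgk1 (0.056) and Txnip (-0.013) overlapped between the genotypes. The part of either response in the Ddit4 values was not tested.

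Haem oxygenase Hmox1, a HIF target that red pulp macrophages also express, measured 10.41 and 8.64 in KO and 10.68 and 9.20 in WT. Its replicates differed by 1.78 in KO and by 1.48 in WT, against a difference between the genotypes of -0.41. The transferrin receptor Tfrc, both a HIF target and an erythroid marker, measured 10.66 and 10.57 in KO and 11.58 and 9.33 in WT.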
